A study of Mus musculus with 8 samples.

Results

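The imprinted region of distal mouse chromosome 7 was examined through 7 genes: H19, Igf2, Kcnq1ot1, Cdkn1c, Phlda2, Slc22a18 and Ascl2. Probes were assigned to a gene where the transcript accession or the symbol that the array design gives them belongs to that gene. All 7 genes had at least 1 probe, 12 probes together out of 55667 on the array. The filter on dim probes, which asks that 3 or more of the 8 arrays detect the probe above background, was passed by 6 of the 7 genes, and Igf2 did not pass it. The other 6 are among the 22685 features tested in the whole series.

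RNA of undifferentiated pluripotent mouse cells was hybridised in a single colour, with 1 array per RNA sample. The groups are OSKH induced pluripotent stem cells (iPSCs), with 4 arrays, OSK iPSCs, which the series calls its control group, with 3 arrays, and embryonic stem cells (ESCs) of the line B6J-23, with 1 array. All 3 groups carry the strain C57BL/6J. OSK is taken to name the reprogramming factors Oct4, Sox2 and Klf4, and the H the oocyte linker histone H1foo. The labels spell out neither name, and the sources used here do not give the reprogrammed cell type, the vectors, the passage, the culture conditions or whether arrays of a group are separate clones. All p-values therefore measure the spread between these RNA samples, which may be technical, and the ESC comparisons rest on 1 array.

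Imprinted genes are expressed mainly from the copy inherited from 1 parent, under an imprinting control region that is methylated in the germ line of only one of the parents. In the H19-Igf2 domain the control region binds the insulator protein Ctcf when it is unmethylated, as on the maternal chromosome, which leaves Igf2 silent and H19 active. On the paternal chromosome the region is methylated, H19 is silent and Igf2 is active. In the neighbouring domain the control region is the promoter of Kcnq1ot1, a long antisense RNA made from the paternal copy, which silences Cdkn1c, Phlda2, Slc22a18 and Ascl2 in cis, some of them only in the placenta. Cultured pluripotent cells are known for losing or gaining methylation at such regions, and bulk RNA levels do not show which parental copy is read.

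Sequence is shown for some of the genes below and was not set against their levels. Letters and coordinates are from RefSeq in the build GRCm38.p6. The array design names mm9, and the files give no probe positions. Along chromosome 7 the members follow each other as H19, Igf2, Ascl2, Kcnq1ot1, Cdkn1c, Slc22a18 and Phlda2. H19, a long non-coding RNA, is the host transcript of the microRNA miR-675, whose arms are on the minus strand at chr7:142577112-142577133 and chr7:142577078-142577099. They have different seeds, bases 2 to 8, printed in capitals.
mmu-miR-675-5p: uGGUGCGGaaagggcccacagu
mmu-miR-675-3p: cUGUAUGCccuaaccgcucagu
The array had no probe named for the microRNA itself, so the host RNA is what was measured.

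Promoter windows were in the RefSeq table for 5 of the 7 genes, with 8 windows in all because Igf2 has several starts. H19 and Cdkn1c had none there. CG dinucleotides, the sites of DNA methylation, are in capitals in the 250 bases before the start of Phlda2 (minus strand, chr7:143502525-143502774), the 250 bases before the start of Slc22a18 (plus strand, chr7:143473539-143473788) and the 300 bases from 250 before to 50 after the start of Kcnq1ot1 (minus strand, chr7:143296498-143296797). The starts used for Phlda2 and Slc22a18 lie inside the annotated spans of these genes, chr7:143501545-143503145 and chr7:143473726-143499334. The windows are printed because Phlda2 and Slc22a18 are close neighbours whose mean differences between the iPSC groups had opposite signs. Neither difference passed the test, and within slide row 2 that of Slc22a18 turned to the side of Phlda2. The Kcnq1ot1 window is printed because its start lies in the control region of both genes.
Phlda2: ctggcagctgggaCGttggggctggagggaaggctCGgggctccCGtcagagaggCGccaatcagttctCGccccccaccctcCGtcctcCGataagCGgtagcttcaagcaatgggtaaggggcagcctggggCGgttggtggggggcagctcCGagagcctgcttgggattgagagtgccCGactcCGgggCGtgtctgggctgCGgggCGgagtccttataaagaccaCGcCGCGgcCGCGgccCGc
Slc22a18: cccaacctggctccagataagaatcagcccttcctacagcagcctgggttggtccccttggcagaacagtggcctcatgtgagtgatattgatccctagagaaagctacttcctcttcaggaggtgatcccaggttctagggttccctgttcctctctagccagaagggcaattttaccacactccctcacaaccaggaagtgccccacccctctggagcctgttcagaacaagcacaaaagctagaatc
Kcnq1ot1: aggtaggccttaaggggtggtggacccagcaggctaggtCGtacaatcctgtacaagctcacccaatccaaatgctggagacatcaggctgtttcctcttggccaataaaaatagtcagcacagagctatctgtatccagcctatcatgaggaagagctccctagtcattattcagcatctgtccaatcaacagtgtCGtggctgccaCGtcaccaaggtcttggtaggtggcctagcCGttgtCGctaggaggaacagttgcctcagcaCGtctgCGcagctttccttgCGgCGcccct

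The Phlda2 window holds 21 CG dinucleotides in 250 bases, the Slc22a18 window 0, and the Kcnq1ot1 window 9 in 300 bases. Over the full 300 bases Phlda2 has 26, Ascl2 23 and Slc22a18 2, against a median of 7 over the 32851 promoter windows of the table. The 4 Igf2 windows range from 2 to 24. The letters TGCCGC, which the imprint-protecting factor Zfp57 reads when methylated, were searched on both strands, where each match also contains a CG. They occur in 1 of the 8 windows, an Igf2 start at chr7:142661222-142661521, and in 11.6% of all windows of this length. A match of letters describes the sequence and does not show binding.

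Each level below is a log2 signal from which the 75th percentile of its own array was subtracted, so that 0 is the signal of the probe at that percentile, and differences are in log2 units with a standard error (SE) from limma, a linear model fitted to all 22685 features. Limma called 0 of 22685 features between OSKH and OSK (0% of those tested) at an adjusted p under 0.05, and 1470 (6.48%) had an unadjusted p under 0.05. None of the 6 tested members was called, and H19 and Phlda2 were the 2 with an unadjusted p under 0.05, H19 among the 3.19% of features that were higher and Phlda2 among the 3.29% that were lower. Detection ran from 51.4% to 59.0% of probes per array, with 0 saturated spots. All arrays lay on 1 slide, with OSKH 1 to 3 and ESC in slide row 1 and OSKH 4 and all OSK arrays in slide row 2, so slide row and group are partly confounded. The only comparison of OSKH with OSK within a row sets OSKH 4 against OSK 1 to 3.

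**Figure D1:**
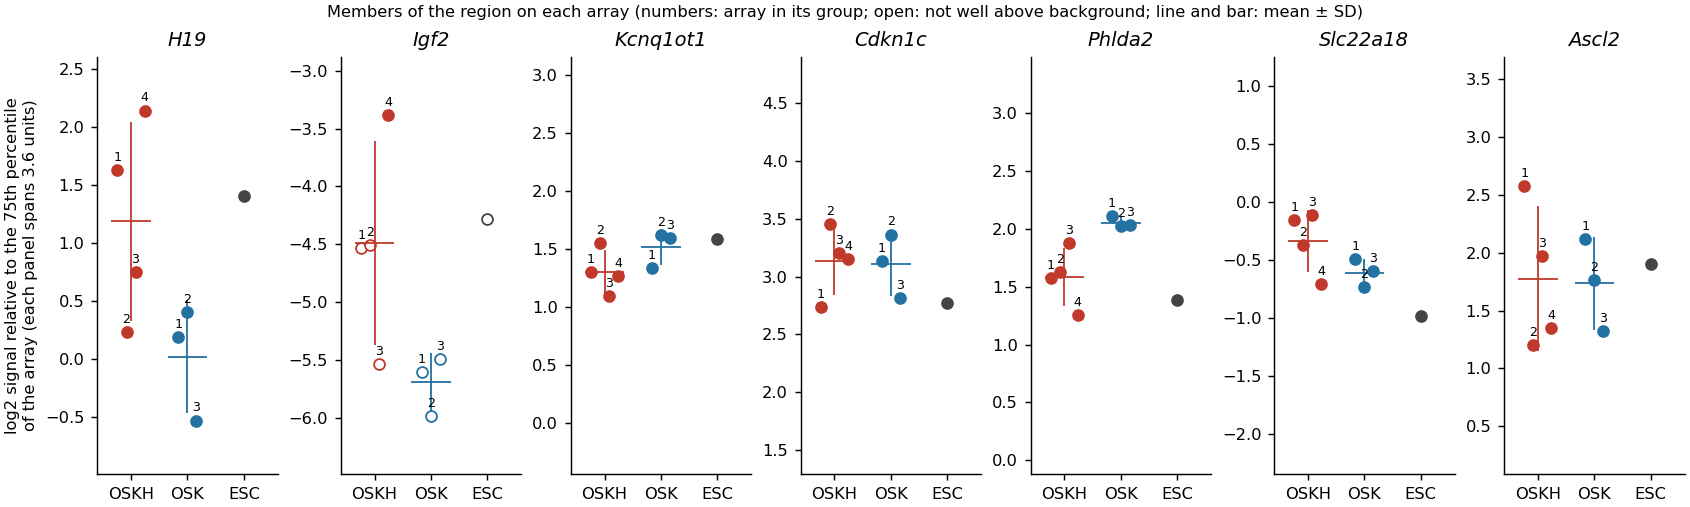
Log2 level of each member gene (0 is the array's 75th percentile) on each of the 4 OSKH, 3 OSK and 1 ESC arrays. Points are arrays, open points are not well above background, and lines with bars are group means ± SD. H19 spans from -0.53 to 2.14 over the iPSC arrays, Igf2 is well above background on OSKH 4 alone, and the Phlda2 levels of all 4 OSKH arrays lie below those of the 3 OSK arrays.

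H19 (probe A_30_P01021588), the maternally expressed non-coding RNA, was measured on all 8 arrays and had the widest range of the 6 tested members. Its level was 1.63, 0.23, 0.75 and 2.14 on OSKH 1 to 4, 0.19, 0.40 and -0.53 on OSK 1 to 3, and 1.40 on the ESC array. OSKH 1, 3 and 4 lay above every OSK array, OSKH 2 lay within the OSK range, and the ESC array lay between OSKH 3 and OSKH 1. OSKH averaged 1.19 ± 0.86 (SD, n = 4) and OSK 0.02 ± 0.49 (SD, n = 3), a 2.25-fold mean difference of 1.17 (SE 0.48, 95% interval 0.02 to 2.32) with a limma adjusted p of 0.764. The groups overlapped, and the difference did not pass the test. Within slide row 2 the difference was 2.12 (limma adjusted p = 0.302), and the alternatives gave adjusted p-values between 0.302 and 0.9999. Without OSKH 4 the difference was 0.85. Arrays of the same number differed, OSKH minus OSK, by 1.44 for number 1, by -0.17 for number 2 and by 1.28 for number 3, so 2 of 3 pairs had more H19 in OSKH.

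The array carries 5 probes named H19, and they gave the same ordering at both ends. OSKH 4 was the highest and OSK 3 the lowest array for 5 of 5 probes. Their OSKH minus OSK differences ran from 1.08 to 1.19, and the spread over the 7 iPSC arrays from 5.23-fold to 6.89-fold. Between any pair of these probes the levels correlated over the 8 arrays with r from 0.962 to 0.993, a description of probes that share RNA samples. A further probe, A_55_P1961127, belongs to the non-coding record NR_001592, which the gene table used here pairs with no gene. Of all tested features, the one named H19 was the most like it, with a root mean square difference of 0.11 log2 units over 8 arrays after each was centred on its own mean. The other probe of that record stayed at background on 8 of 8 arrays.

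**Figure D2:**
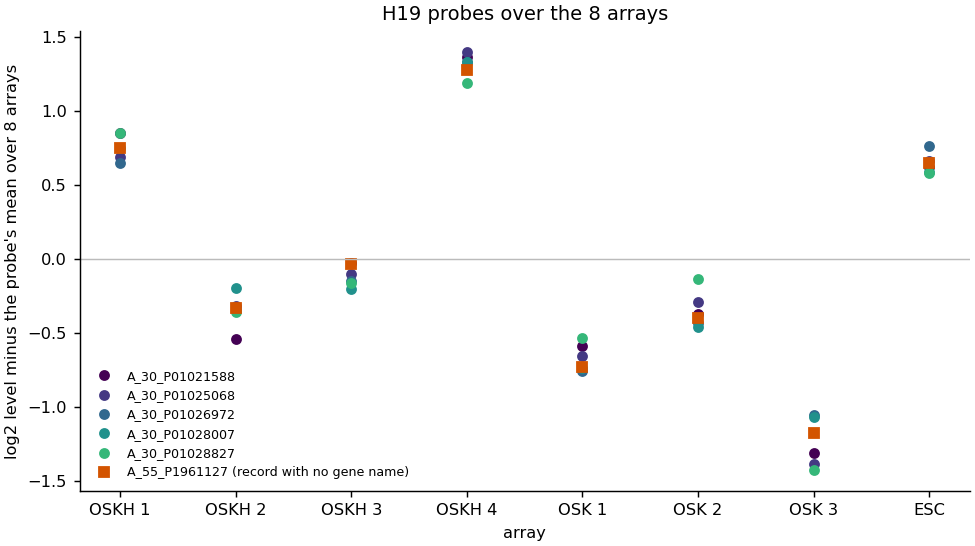
Log2 level of each of the 5 H19 probes (circles) and of the probe of the unpaired record (squares), minus the probe's own mean, on each array. The probes move together, highest on OSKH 4, then on OSKH 1 and ESC, and lowest on OSK 3.

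Igf2 (NM_010514, probe A_55_P2118173), the paternally expressed growth factor of the insulin family, was close to background. Its single probe had processed signals of 20.5, 22.0, 9.77 and 42.4 on OSKH 1 to 4, 9.87, 7.44 and 10.2 on OSK 1 to 3, and 21.9 on the ESC array, where the dimmest probes well above background had signals of 16.2 to 26.8 depending on the array. It was well above background on 1 of 8 arrays, OSKH 4, which was also the highest array for H19. OSKH 3 and the 3 OSK arrays were the 4 dimmest. The OSKH mean was -4.49 and the measured OSK mean -5.69 on the log2 scale. As all OSK arrays were not well above background, OSK has only an upper bound, which the OSKH mean did not exceed, and no fold is given.

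Kcnq1ot1 (NR_001461, probe A_55_P2408415), the paternal antisense RNA of the Kcnq1 domain, was among the steadier members. The brighter of its 2 probes read 1.30, 1.55, 1.10 and 1.27 on OSKH 1 to 4, 1.33, 1.62 and 1.59 on OSK 1 to 3 and 1.58 on the ESC array. OSKH 1, 3 and 4 lay below all OSK arrays and OSKH 2 within their range. OSKH averaged 1.30 ± 0.19 (SD, n = 4) and OSK 1.52 ± 0.16 (SD, n = 3), a difference of -0.21 (SE 0.13, 95% interval -0.53 to 0.10, limma adjusted p = 0.850) that did not pass. Its other probe differed by -0.14, but there OSK 1 (-1.25) and OSK 2 (-1.29) lay within the OSKH range and only OSK 3 (-0.87) lay above it. Within slide row 2 the difference of the brighter probe was -0.25.

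Cdkn1c (NM_009876, probe A_51_P339540), which encodes the cell cycle inhibitor p57, did not separate the groups. It read 2.74, 3.45, 3.20 and 3.15 on OSKH 1 to 4, 3.14, 3.36 and 2.82 on OSK 1 to 3, and 2.77 on the ESC array. The difference was 0.03 (SE 0.20, limma adjusted p = 0.988), and its 95% interval of -0.44 to 0.50 leaves room for a moderate change in either direction. Within slide row 2 it was 0.05.

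Phlda2 (NM_009434, probe A_52_P350786), a pleckstrin-homology protein that restrains growth of the placenta, was the member whose iPSC groups did not overlap. It read 1.58, 1.62, 1.87 and 1.26 on OSKH 1 to 4, 2.11, 2.03 and 2.03 on OSK 1 to 3, and 1.38 on the ESC array. All 4 OSKH arrays lay below all 3 OSK arrays, as in 4.19% of all features, while 7.34% of features had groups that did not overlap in either direction. OSKH averaged 1.58 ± 0.25 (SD, n = 4) and OSK 2.05 ± 0.05 (SD, n = 3), a difference of -0.47 (SE 0.14, 95% interval -0.81 to -0.13) with a limma adjusted p of 0.732, which did not pass. Because the groups did not overlap, all 3 pairs of arrays with the same number necessarily had less Phlda2 in OSKH. Within slide row 2 the difference was -0.80 (limma adjusted p = 0.151, and 0.151 to 0.9999 over all alternatives), and without OSKH 4 it was -0.36. OSKH 4 had the lowest Phlda2 and the highest H19 of the 8 arrays.

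Slc22a18 (NM_001042760, probe A_55_P2037717), a membrane transporter of the organic cation family whose gene is the next one to Phlda2 among the members, lay on the other side. It read -0.16, -0.37, -0.11 and -0.71 on OSKH 1 to 4, -0.49, -0.74 and -0.60 on OSK 1 to 3, and -0.98 on the ESC array. OSKH 1 to 3 lay above all OSK arrays, OSKH 4 lay within their range, and the ESC array lay below all 7 iPSC arrays, as in 8.09% of all features. The OSKH minus OSK difference was 0.27 (SE 0.16, 95% interval -0.11 to 0.65, limma adjusted p = 0.844). Within slide row 2 its direction turned, at -0.10.

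Ascl2 (NM_008554, probe A_55_P2033725), a basic helix-loop-helix factor needed for the trophoblast and a Wnt target in intestinal stem cells, varied within both groups more than between them. It read 2.57, 1.21, 1.97 and 1.35 on OSKH 1 to 4, 2.12, 1.77 and 1.32 on OSK 1 to 3, and 1.90 on the ESC array. The highest arrays, OSKH 1 and OSK 1, belong to different groups, and so do the lowest, OSKH 2 and OSK 3. The difference was 0.04 (SE 0.36, 95% interval -0.82 to 0.90, limma adjusted p = 0.991). Its sign was not stable, since it ran from -0.38 (within slide row 2) to 0.23 (without OSK 1).

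**Figure D3:**
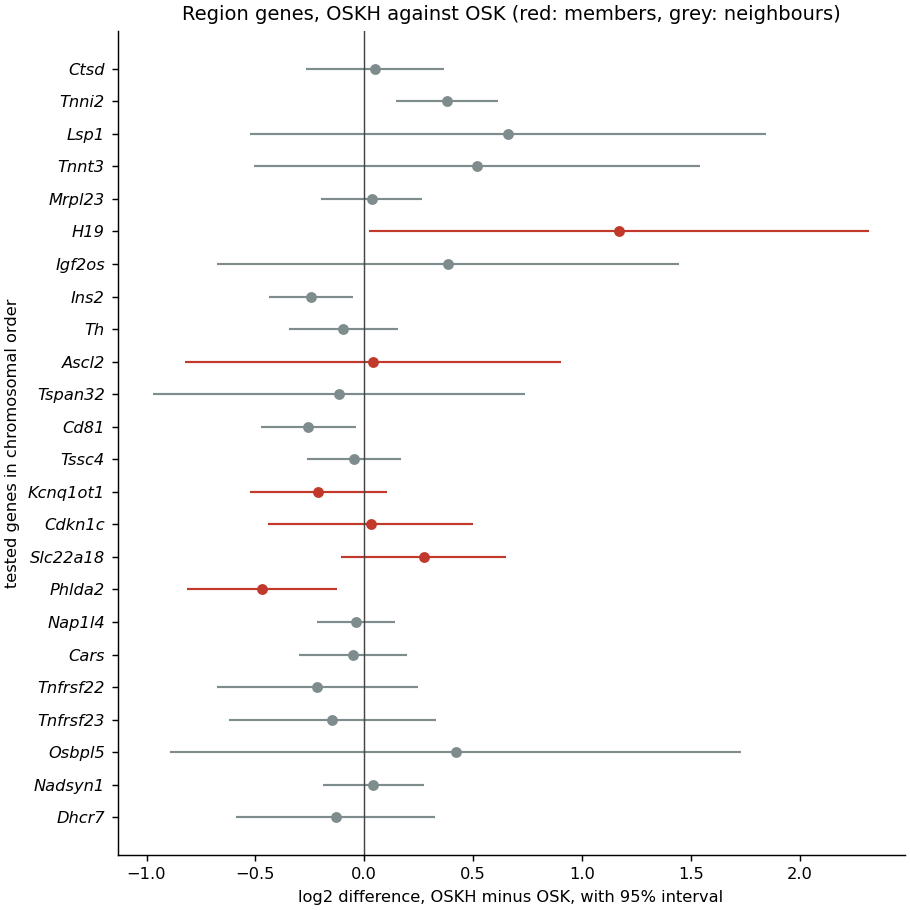
OSKH minus OSK log2 difference of each tested gene of the region, in chromosomal order, with its 95% interval from limma. Members are red and neighbours grey. Among the members the H19 interval (0.02 to 2.32) and the Phlda2 interval (-0.81 to -0.13) leave out 0 before adjustment over all features, and no gene passed after it.

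The residual SD around the group means, from the same fit, shows how far arrays of 1 group lie apart. H19 had a residual SD of 0.73, exceeded by 4.86% of all features, and Ascl2 of 0.55, exceeded by 10.4%. Cdkn1c (0.29), Slc22a18 (0.22), Phlda2 (0.20) and Kcnq1ot1 (0.18) lay closer to the median of 0.196 over all features. Over the 7 iPSC arrays H19 spanned 6.40-fold, Ascl2 2.58-fold, Phlda2 1.80-fold, Cdkn1c 1.64-fold, Slc22a18 1.54-fold and Kcnq1ot1 1.43-fold. H19 and Ascl2 were both high on OSKH 1 and low on OSKH 2 and OSK 3. They parted on OSKH 4, with 2.14 for H19 and 1.35 for Ascl2, and on OSK 1, with 0.19 for H19 and 2.12 for Ascl2.

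**Figure D4:**
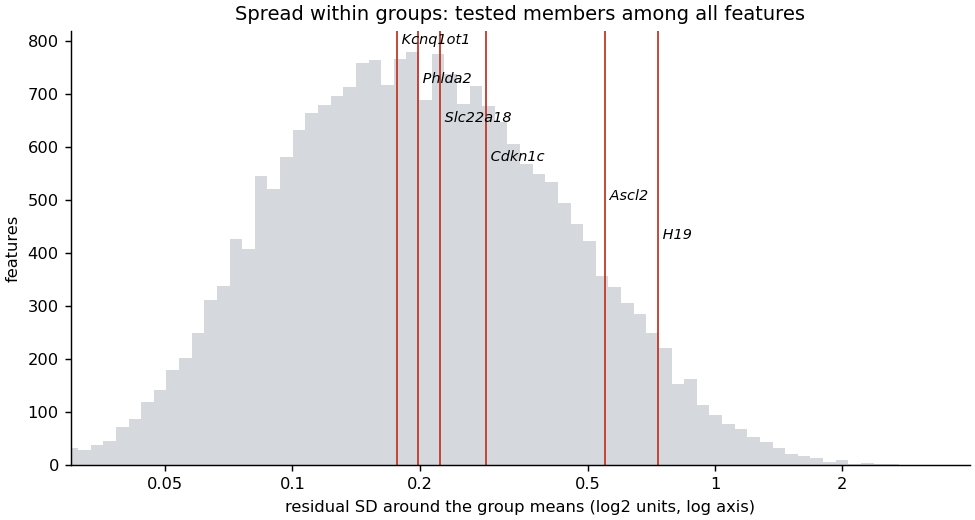
Histogram of the residual SD around the group means (log2 units, log axis) over 22685 features, with red lines at the 6 tested members. H19 (0.73) and Ascl2 (0.55) sit in the right tail, and Kcnq1ot1 (0.18) and Phlda2 (0.20) near the centre.

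Likeness to other genes was measured as the root mean square difference over 8 arrays after centring each gene on its mean. Outside the region the named genes most like H19 were Stard8 at 0.22, Cd82, a tetraspanin, at 0.25 and AI661453 at 0.26, where H19 itself varied by 0.83 around its mean. Stard8 was well above background on 7 of 8 arrays. Those most like Ascl2 were Pramel13, of the Prame-like family, at 0.11, Sdcbp2, a syntenin, at 0.13 and Sdc4, a cell-surface proteoglycan, at 0.14, against 0.44 for Ascl2 around its own mean. All these values share the same 8 RNA samples.

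Against the ESC array limma called 0 features for OSKH and 0 for OSK. At an unadjusted p under 0.05 there were 990 (4.36%) for OSKH, with 1.69% higher and 2.67% lower, of which 1 was a member, Slc22a18. There were 1365 (6.02%) for OSK, with 2.75% higher and 3.27% lower, of which 1 was a member, Phlda2. Both comparisons use the same single array, whose own spread is unknown and is assumed to be that of the iPSC arrays. H19 differed from ESC by -0.21 (SE 0.71) in OSKH and by -1.38 (SE 0.73) in OSK, and the OSK difference did not pass (limma adjusted p = 0.837). Phlda2 differed by 0.20 (SE 0.21) in OSKH and by 0.67 (SE 0.22, limma adjusted p = 0.784) in OSK. Slc22a18 differed by 0.65 (SE 0.23, limma adjusted p = 0.999) in OSKH and by 0.37 (SE 0.24) in OSK. With slide row as a block, OSK minus ESC was -2.66 for H19, 1.11 for Phlda2 and 0.87 for Slc22a18, and none of the 3 passed. For Cdkn1c the differences were 0.36 in OSKH and 0.33 in OSK, for Kcnq1ot1 -0.28 and -0.07, and for Ascl2 -0.13 and -0.17. Slc22a18 was the only one of the 6 tested members for which the ESC array lay outside the range of the 7 iPSC arrays, which was so for 26.6% of all features.

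Neighbouring genes of the region were followed as listed sets. Beside H19 and Igf2, 8 of 11 listed genes were tested and 0 called between OSKH and OSK, with 6 higher and 2 lower and a median difference of 0.21, where the median over all features was -0.01. The smallest p-values were those of Tnni2, a fast-muscle troponin, at 0.38 (SE 0.10), Ins2, an insulin gene, at -0.24 (SE 0.08) and Lsp1, an actin-binding protein of leukocytes, at 0.66 (SE 0.50). Tnnt3, another fast-muscle troponin, was detected on 2 of 4 OSKH arrays and on 0 of 3 OSK arrays, and no fold is given for it. Under the alternatives Tnni2 ran from 0.18 (normexp background correction) to 0.42, Ins2 from -0.28 to -0.17 and Lsp1 from 0.23 (without OSKH 4) to 1.96 (within slide row 2).

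In the Kcnq1 domain 10 of 13 listed neighbours were tested and 0 called, with 2 higher and 8 lower and a median of -0.08. Kcnq1 itself, a potassium channel, did not pass the filter. Cd81, a tetraspanin, averaged 5.26 ± 0.10 in OSKH (SD, n = 4) and 5.52 ± 0.10 in OSK (SD, n = 3), a difference of -0.26 (SE 0.09, limma adjusted p = 0.750). The decoy receptors Tnfrsf22 and Tnfrsf23 differed by -0.22 and -0.15, and Osbpl5, an oxysterol-binding protein, by 0.42. Under the alternatives Osbpl5 ran from -0.09 (without OSKH 4) to 1.96 (within slide row 2) and Tnfrsf23 from -0.24 (without OSKH 2) to 0.10 (within slide row 2). Tnfrsf22 ran from -0.56 (within slide row 2) to -0.10 (without OSKH 4).

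Of 16 listed factors that act on imprinting control regions, 15 were tested and 0 called, with 5 higher and 10 lower in OSKH and a median of -0.04. Dppa3, which shields imprints from demethylation in the zygote, averaged 2.59 ± 0.40 in OSKH (SD, n = 4) and 1.95 ± 0.54 in OSK (SD, n = 3), with 2.72 on the ESC array, a difference of 0.64 (SE 0.31, limma adjusted p = 0.804). Dnmt3a, a de novo DNA methyltransferase, differed by -0.41, its germline cofactor Dnmt3l by -0.35 and the histone methyltransferase Setdb1 by -0.11. Under the alternatives Dppa3 ran from 0.37 (without OSK 3) to 0.91, and Dnmt3a from -0.56 to -0.15 (without OSKH 1). Dnmt3l ran from -1.005 (within slide row 2) to -0.13 (without OSKH 4), and Setdb1 from -0.19 (within slide row 2) to -0.06 (without OSK 3).

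Of the receptors and partners of Igf2, 13 of 13 were tested and 0 called, with 12 higher and 1 lower in OSKH. Their median difference was 0.21, where the median over all features was -0.01. The list mean was 0.78 on OSKH 4, 0.02 to 0.48 on OSKH 1 to 3 and -0.16 to 0.29 on the OSK arrays, so the groups overlapped. Igf2r, the imprinted receptor that clears Igf2, read 1.95 ± 0.06 in OSKH (SD, n = 4) and 1.77 ± 0.08 in OSK (SD, n = 3), a difference of 0.19 (SE 0.08, limma adjusted p = 0.767). The signalling adaptors Irs2 and Irs1 differed by 0.70 (SE 0.31) and 0.91 (SE 0.48), and Igf1, measured on 2 of 3 OSK arrays, by 0.70 (SE 0.37). Under the alternatives Irs1 ran from 0.52 (normexp background correction) to 1.59 (within slide row 2), Igf1 from 0.14 (normexp) to 1.36 (within slide row 2) and Irs2 from 0.33 (without OSK 1) to 0.93. Of the cell cycle partners of Cdkn1c, 6 of 6 were tested and 0 called, with 3 higher and 3 lower. Its relatives Cdkn1a (p21) and Cdkn1b (p27) differed by -0.58 (SE 0.29) and 0.40 (SE 0.20), and the cyclins Ccnd1 and Ccne1 by 0.27 and -0.07. Under the alternatives Cdkn1a ran from -0.76 to -0.35 (without OSKH 1) and Cdkn1b from 0.24 (without OSK 1) to 0.63 (without OSK 3). Ccnd1 ran from 0.17 (without OSK 2) to 0.52 (within slide row 2) and Ccne1 from -0.18 (within slide row 2) to -0.03 (without OSKH 4).

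Mean marker levels of other cell types moved with H19 on some arrays. All 11 pluripotency markers were well above background on 8 of 8 arrays, with a list mean of 4.40 to 5.10 on OSKH arrays, 4.52 to 4.79 on OSK arrays and 4.99 on the ESC array. The mean of 10 fibroblast markers was -1.28, -1.09, -1.55 and 0.69 on OSKH 1 to 4, -1.99, -1.41 and -1.21 on OSK 1 to 3 and 0.62 on the ESC array. OSKH 4 and ESC, which were high in H19, were the high arrays for the mean of this list as well. OSKH 1 was high in H19 and lay within the OSK range for the fibroblast mean. OSKH 4 and ESC also shared slide column 1, and the part of slide position in these levels was not tested. Col1a1, Col1a2, Col3a1, Dcn, Twist1 and Thbs1 were highest on OSKH 4, and Postn and Twist2 on the ESC array. Twist1 was not well above background on the ESC array. Thy1 was highest on OSKH 3 (3.44), with OSKH 4 (2.50) within the OSK range. Vim was highest on OSK 2 (4.61), and on OSKH 4 (4.21) it lay below all OSK arrays. The mean of 4 mesendoderm markers was 2.29 on OSKH 4, -3.05 to -2.34 on OSKH 1 to 3, -3.26 to -2.94 on the OSK arrays and -1.06 on the ESC array. Of the listed markers, 8 of 11 trophoblast genes were tested, with a mean of 1.51 on OSKH 4, -0.31 to -0.04 on OSKH 1 to 3, -0.40 to 0.01 on the OSK arrays and 0.45 on the ESC array. Cdx2, Krt7, Krt8 and Krt18 were highest on OSKH 4. Tfap2c and Gata3 were highest on OSKH 1, Prl3d1 was highest on the ESC array, and Gcm1 was lowest on OSKH 4. Of 12 endoderm genes 6 were tested, with a mean of -0.54 on OSKH 4, -2.07 to -1.37 on OSKH 1 to 3, -2.11 to -1.87 on the OSK arrays and -1.10 on the ESC array. Of these 6, Foxa2 (4.03 on OSKH 4) was the only marker with its highest level there. Sox7 and Lama1 were highest on OSKH 1, Dab2 and Amn on OSKH 3, and Cubn was lowest on OSKH 4. Gata4, Gata6, Sox17, Afp, Ttr and Apoa1 of the endoderm list, Elf5, Hand1 and Tpbpa of the trophoblast list, Mixl1 and Mesp1 of the mesendoderm list and Lum and Pdgfrb of the fibroblast list did not pass the filter. The part of these cell types in the H19 values was not tested, and in bulk RNA more cells of a type and more RNA per cell cannot be told apart.

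**Figure D5:**
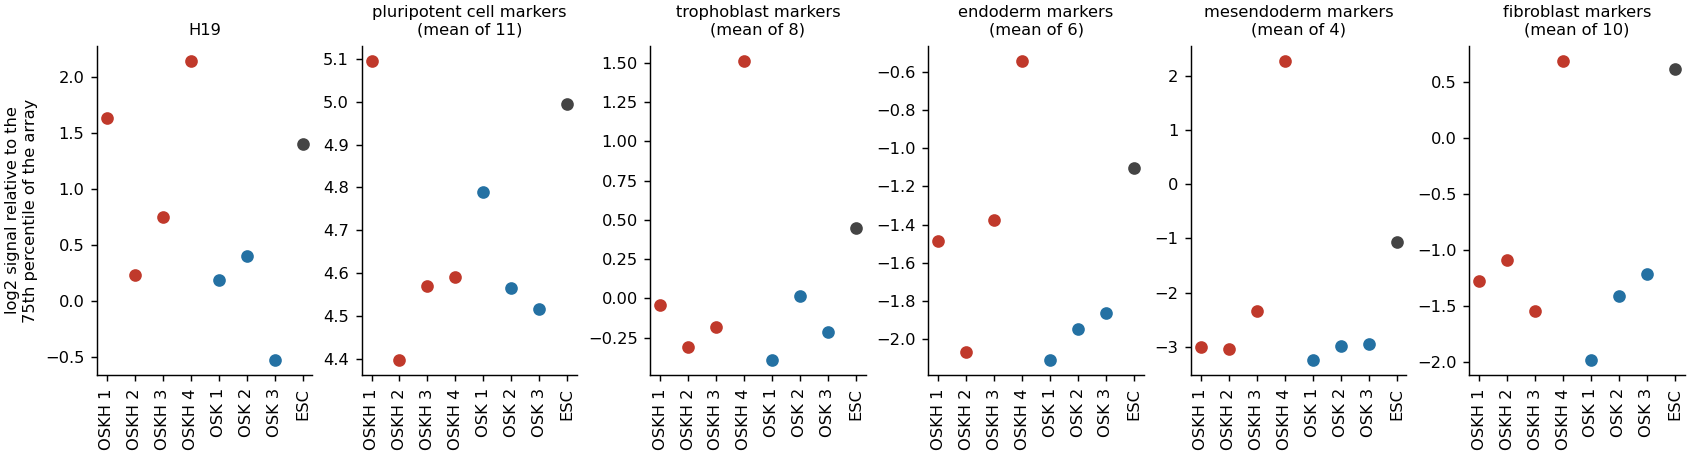
Level of H19 and mean level of each marker list (log2 signal, 0 being the array's 75th percentile, with the number of tested markers) on each array, red for OSKH, blue for OSK and grey for ESC. OSKH 4 is highest for H19 and for the mean of every list except the pluripotency markers, though not for every marker of a list. OSKH 1 is high for H19 while its fibroblast mean is -1.28.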

How the data were processed

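RNA of 8 samples was hybridised to one-colour arrays. Per the labels' protocols RNA was turned into Cy3-labelled cRNA, and per the file headers the spots were read with Agilent Feature Extraction 11.5.1.1. The deposited intensity is the processed signal, with background subtraction and detrending within an array and no scaling between arrays. The authors' deposited value table is on a log2 scale. Its columns (medians -3.72 to -3.61) matched the scanner's processed signal on the log2 scale, shifted by 1 number for each array (a tolerance of 0.01, met by 99.7% of probes or more), which settles its scale, direction and lack of centring per probe. The flags in the deposited files, as other values, are 0 or 1. Spots flagged as non-uniform or population outliers were dropped and the rest averaged per probe, 14 probes with no unflagged spot on some array were left out, and log2 signals were scaled to the 75th percentile of each array (424 to 501). A RefSeq table of assembly GRCm38.p6 named 27650 probes by accession, 11 probes carry a current symbol in the file (5 of them H19), and 28006 kept an identifier. Each gene is represented by its probe with the highest mean. Groups came from sample titles. All 3 groups entered 1 fit in limma 3.58.1 (R 4.3.3), with Benjamini-Hochberg adjustment over 22685 features and a threshold of 0.05, with 5 residual and 1.85 prior degrees of freedom. The test was checked on simulated data. Arrays of the same number in the titles also shared a slide column, and their deviations from the group means correlated at 0.206 to 0.489 in 3 of 3 pairs. OSKH 4 and OSK 3, of different numbers, correlated at 0.157. Array number and slide column cannot be told apart. The ESC array shared slide column 1 with OSKH 4. The main fit left array number out, so its SEs, intervals and p-values take no account of pairs. A block by array number, which drops OSKH 4, was 1 of the alternatives. The alternatives were the background correction (normexp, offset 50, on median spot signals, since no mean spot signal column was present in the files, which the plan had named), the scaling, the filter, the probe choice, the value table, slide row, array number, the spread model and leaving out single arrays. From each gene list up to 4 tested genes with the smallest p between OSKH and OSK are named, and for the 2 members that span over 1 log2 unit the 3 most alike genes. The members and lists were chosen with earlier results of these data known.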

Additional observations from a re-analysis of the deposited data

Results flagged for a closer look

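In the group of 4 OSKH arrays, 26 genes were examined for an array far from the others (6 members and 20 other named genes), and 2 had one, where chance gives about 1 in 20. No member was among them. Setdb1 read 2.21 on OSKH 2, above the other OSKH arrays, and Ccnd1 read 3.65 on OSKH 1, below the other OSKH arrays.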

How the results depend on the processing

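No member and no other named gene passed the limma test under any alternative (lowest adjusted p 0.110), and 23 of 690 values, spread over 9 of 38 results, turned their direction. Many of these values could not turn. The changed filters, the spread model and the fit of iPSC arrays only kept the main difference of each gene they held. Leaving out an array of a group outside the comparison kept it too. The share that turned is therefore no measure of how stable the directions are. The count of called features was 0 in each comparison, and 0 to 0 when single arrays were left out. OSKH minus OSK reached 47 calls (38 higher, 9 lower) with slide row as a block and 47 within slide row 2, OSK minus ESC 38 (7 higher, 31 lower) with slide row as a block, and without the filter on dim probes OSKH minus ESC reached 11 and OSK minus ESC 9. For OSKH minus OSK, slide row as a block and the comparison within slide row 2 (OSKH 4 against OSK) are the same contrast and turned Slc22a18 to -0.096, Ascl2 to -0.38 and Tnfrsf23 to 0.10. The replicate block, which drops OSKH 4, left the count at 0, changed no call and turned Osbpl5 to -0.094. Slide row as a block turned Ascl2 to 0.015 for OSKH minus ESC (also within slide row 1) and to 0.40 for OSK minus ESC, and the mean of the probes of a gene turned Kcnq1ot1 to 0.0048 for OSK minus ESC. With single arrays left out, OSKH minus OSK ran from -0.11 to 0.16 for Cdkn1c, from -0.22 to 0.23 for Ascl2, from -0.094 to 0.75 for Osbpl5 and from -0.24 to 0.026 for Tnfrsf23. OSKH minus ESC ran from -0.53 to 0.10 for H19 and from -0.39 to 0.064 for Ascl2, and OSK minus ESC from -0.12 to 0.023 for Kcnq1ot1 and from -0.36 to 0.040 for Ascl2. The cause of these turns was not tested. Igf2 lay too near background for a fold.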
